A study of Rattus norvegicus with 12 samples.

Results

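The mitochondrial carrier family, whose genes are named Slc25a and a number, was followed in cultured newborn rat heart muscle cells after knockdown of Btg1, Btg2 or both. Of 17419 gene symbols in the count table, 40 had such a name, and the 36 with a mean of at least 10 counts over the 12 libraries were taken as members. All 36 passed the filter on low counts. The lowest member was Slc25a53 with a mean of 11.3 counts, followed by Slc25a21 with 46.3. Just outside the rule lay Slc25a18 with 2.67, Slc25a47 with 2.17, Slc25a54 with 0.5 and Slc25a41 with 0.167. Slc25a34 was in view when the family was chosen because it was among the largest falls, so its values are a description with no test. Slc25a53 entered the rule only through the groups in which it was high. Its counts were 4, 0 and 4 in scramble libraries, 16, 11 and 10 after Btg1 siRNA, 6, 6 and 12 after Btg2 siRNA and 30, 7 and 30 after both. Both genes were left out of every count of rises and falls below, which covers the other 34 carrier genes. Counts of levels and of sequence motifs include them.

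The cells were cardiomyocyte-enriched primary cultures from ventricles of wildtype Sprague-Dawley rats at P0, harvested 48 h after small interfering RNAs (siRNAs) were transfected. Each of 4 groups had 3 libraries. A scrambled siRNA at 20 nM made the control. Single knockdowns combined 10 nM of it with 10 nM of either targeting siRNA, and the double knockdown combined both targeting siRNAs at 10 nM each. Fibroblasts had been separated from the cells before plating, and the origin of replicates from separate cultures or animals is not stated in the labels. P-values therefore reflect only the spread among these libraries, and that may be technical. Btg1 and Btg2 encode related proteins that curb cell division and recruit the CCR4-NOT complex, which shortens the tails of messenger RNAs.

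Mitochondrial carriers are small proteins of the inner mitochondrial membrane that exchange one metabolite for another between the cytosol and the matrix. They bring ADP, phosphate, fuels, amino acids and cofactors in, and carry ATP and biosynthetic precursors out. In heart muscle, where contraction depends on mitochondrial ATP, the ADP/ATP and phosphate carriers are among the abundant proteins of the inner membrane. The carriers are encoded in the nucleus and reach the inner membrane through the TOM70 receptor and the TIM22 complex.

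Total counts per library ran from 24434925 to 46206581, and the carrier genes took 0.427 to 0.450% of them. One count was worth 0.0213 to 0.0422 CPM, counts scaled to the size of the library. Btg1 stood at 284 to 286 CPM in scramble libraries, 62.0 to 71.1 after Btg1 siRNA, 292 to 296 after Btg2 siRNA and 49.9 to 54.8 after both. Btg2 stood at 133 to 146 CPM in scramble libraries, 173 to 180 after Btg1 siRNA, 81.6 to 87.0 after Btg2 siRNA and 68.0 to 70.1 after both. Double knockdown replicates 1 and 3 differed more from each other than any other pair of replicates did.

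Levels were compared between genes in TPM, an abundance scaled to both gene length and library size. The family was led by 3 carriers of ATP synthesis. Slc25a4, the ADP/ATP carrier typical of heart and skeletal muscle, stood at 1861.5, 1891.6 and 1911.8 TPM in the scramble libraries. Slc25a3, which carries the phosphate used to make ATP, stood at 993.6, 961.2 and 985.1. Slc25a5, the ADP/ATP carrier found in most tissues, stood at 729.8, 723.8 and 770.6. The 3 genes did not overlap in scramble libraries, and together they held 67.5 to 71.1% of the family's TPM in every library. Next came Slc25a11, the oxoglutarate carrier of the malate-aspartate shuttle, at 428.3, 432.3 and 441.9 TPM. Slc25a39, needed for the import of glutathione into mitochondria, followed at 260.7, 257.8 and 258.2.

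In scramble cultures 7 of the 36 genes lay over 100 TPM, 21 from 10 to 100 and 8 under 10. Of the 35 neighbouring pairs in the order of levels, 10 overlapped between libraries. Slc25a46 at 50.6 ± 0.971 TPM (SD, n = 3) and Slc25a26 at 49.7 ± 1.22 were the highest pair that did so. Slc25a34 stood at 18.5 ± 1.13 TPM and Slc25a21 at 0.633 ± 0.208. Summed over the family, the level was 5282.5 to 5398.0 TPM in scramble libraries and 5164.7 to 5341.7 in the other 9, and 8 of these 9 lay below the lowest scramble library, the exception being Btg2 knockdown replicate 2. The plot of levels shows every library.

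**Figure D1:**
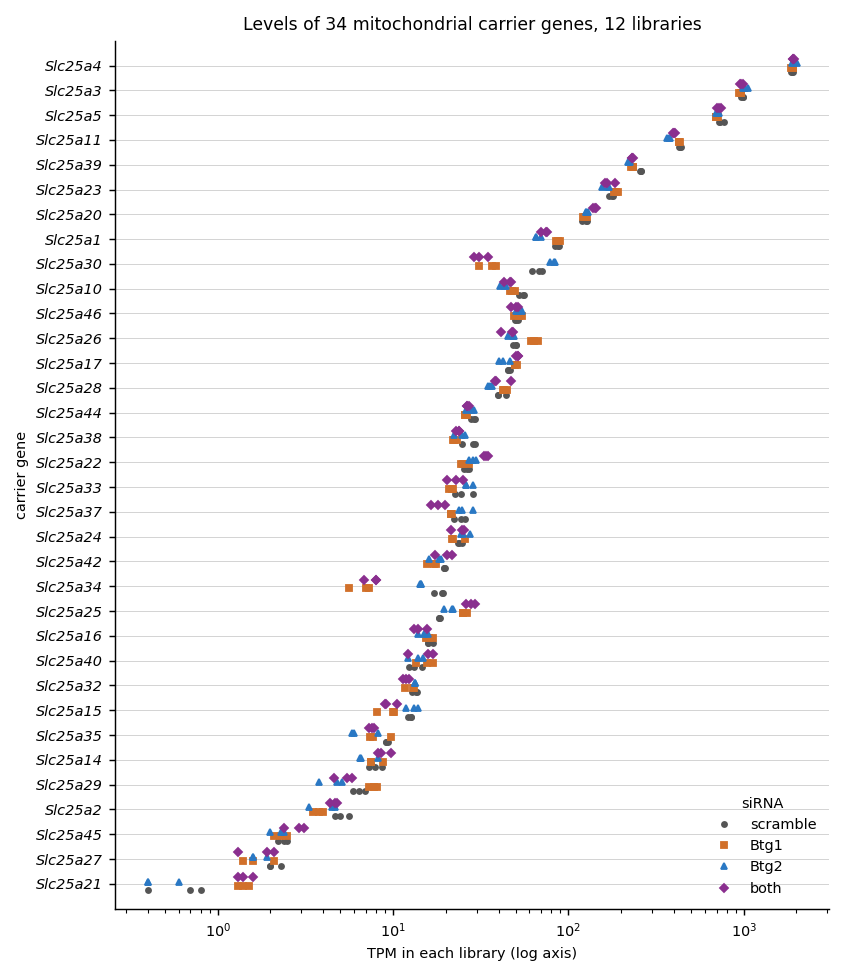
Level of 34 carrier genes in each of the 12 libraries (points, coloured by group), in TPM on a log axis, one row per gene. Slc25a4, Slc25a3 and Slc25a5 sit above all others in every library. Slc25a21 is at the bottom in scramble and Btg2 knockdown libraries and overlaps Slc25a27 in the other groups.

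None of these 3 abundant carriers passed the test in any comparison. The test was edgeR's quasi-likelihood test on counts, fitted over 12535 genes, with Benjamini-Hochberg adjustment, and a gene is said to rise, fall or change only where its adjusted p was under 0.05. Slc25a4 stood at 1851.9 to 1921.7 TPM after Btg1 siRNA, 1889.0 to 2012.9 after Btg2 siRNA and 1908.5 to 1931.9 after both. Its change in the double knockdown against scramble was 0.01 ± 0.04 (log2 ± SE). Slc25a3 spanned 944.7 to 1059.5 TPM over the 9 knockdown libraries, and Slc25a5 spanned 696.0 to 739.2. Another 7 genes passed in no comparison: Slc25a14, Slc25a24, Slc25a27, Slc25a32, Slc25a40, Slc25a45 and Slc25a46. A gene that did not pass is not shown to be unchanged.

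Among the 34 carrier genes counted, the other 24 passed in at least 1 of 6 comparisons. In the double knockdown against scramble 5 rose and 9 fell, 41.2% of the 34, beside 38.9% of all genes tested (19.4% higher and 19.5% lower). In the Btg1 knockdown 3 rose and 8 fell, 32.4% beside 36.5% of all genes (18.7% higher and 17.8% lower). In the Btg2 knockdown 2 rose and 8 fell, 29.4% beside 30% of all genes (16.4% higher and 13.6% lower). The totals lay near those of all genes. By direction 14.7% of the 34 rose and 26.5% fell in the double knockdown, 8.82% rose and 23.5% fell in the Btg1 knockdown, and 5.88% rose and 23.5% fell in the Btg2 knockdown. The median log2 change was -0.084, -0.034 and -0.088 in the 3 comparisons, beside -0.0061, -0.0011 and -0.0017 for all genes. Leaving out Btg1 knockdown replicate 1 brought the count for the Btg1 knockdown from 11 to 7, and leaving out Btg2 knockdown replicate 3 brought that for the Btg2 knockdown from 10 to 6. The shares of all genes that passed under these removals were not counted. The 3 comparisons share the scramble libraries and are not independent.

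The typical change was small, with a median absolute log2 change of 0.163 in the double knockdown, 0.138 in the Btg1 knockdown and 0.121 in the Btg2 knockdown, beside 0.161, 0.151 and 0.138 for all genes. A change of at least 1.5-fold was called for 2 of the 34 genes in the double knockdown, Slc25a21 and Slc25a30, for the same 2 in the Btg1 knockdown and for none in the Btg2 knockdown. The plot of changes by role shows which genes these are.

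**Figure D2:**
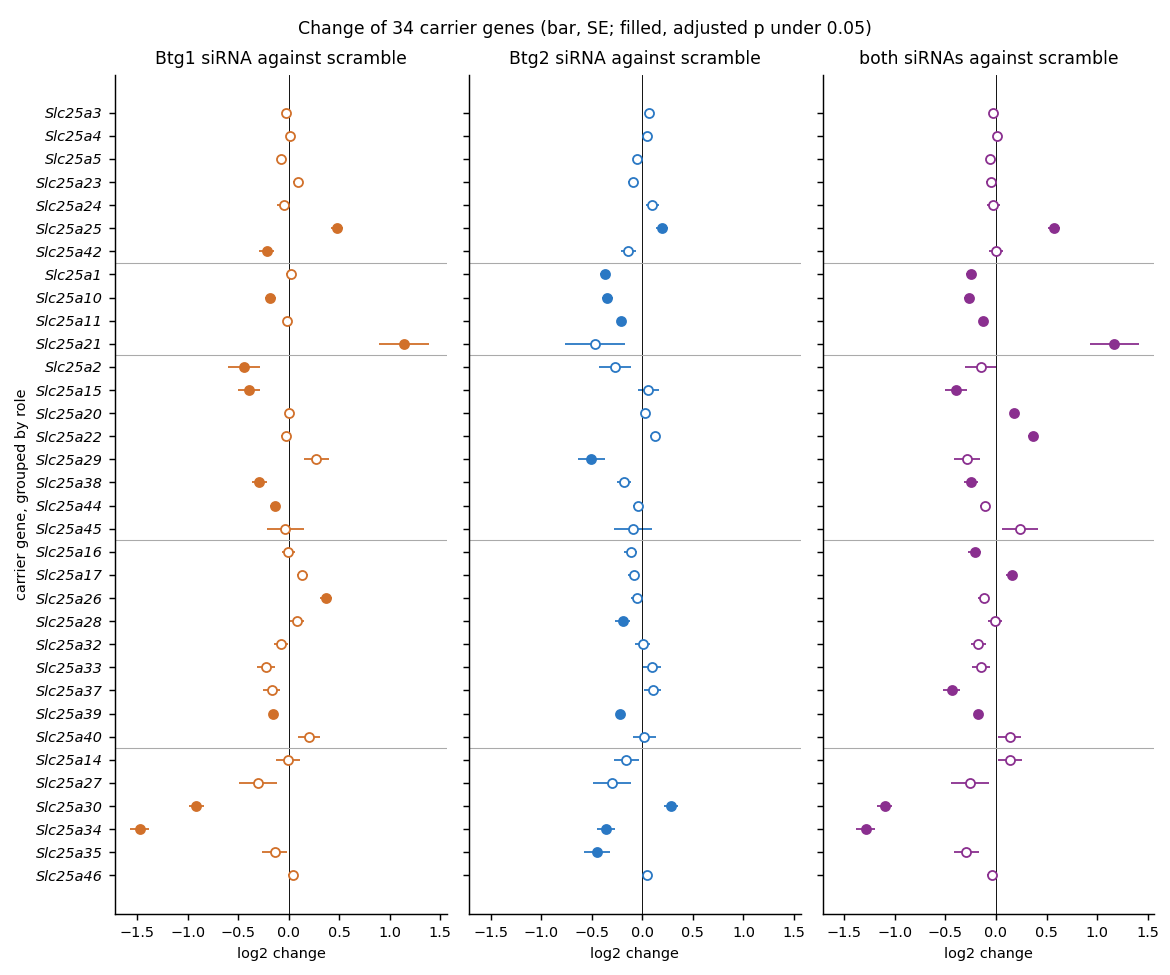
Log2 change against scramble of 34 carrier genes in the double, Btg1 and Btg2 knockdowns, grouped by role, with bars of 1 standard error and filled points at an adjusted p under 0.05. Slc25a21 lies far to the right and Slc25a30 and Slc25a34 far to the left in the double and Btg1 panels, while most other genes lie near 0.

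Slc25a34, an orphan carrier whose substrate is not settled, stood at 21.7, 19.5 and 21.4 CPM in scramble libraries. After Btg1 siRNA it stood at 7.72, 8.31 and 6.44, after Btg2 siRNA at 16.4, 16.6 and 15.9, and after both at 8.84, 7.63 and 9.08. The 6 libraries that received the Btg1 siRNA all lay below the other 6. Means were 35.9% of scramble for the Btg1, 78.1% for the Btg2 and 40.8% for the double knockdown. In log2 terms the changes were -1.47 ± 0.09, -0.36 ± 0.09 and -1.29 ± 0.09. Its closest relative by name, Slc25a35, also an orphan, stood at 7.79 to 8.11 CPM in scramble libraries, 6.48 to 8.27 after Btg1 siRNA, 4.92 to 7.13 after Btg2 siRNA and 6.33 to 6.66 after both. Slc25a35 passed the test only in the Btg2 knockdown against scramble (log2 change -0.45 ± 0.13, adjusted p = 0.010), and not without Btg2 knockdown replicate 3 (adjusted p = 0.088).

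The Btg1 siRNA was tested in pairs of groups that share no library, the Btg1 knockdown against scramble and the double against the Btg2 knockdown. In the second pair 6 of the 34 carrier genes rose and 4 fell, 29.4% beside 32.2% of all genes (15.2% higher and 17% lower). Scaling by library size alone gave 10 rises and 3 falls there. That scaling also moved the median log2 change of all genes up by 0.031. The share of all genes that passed under it was not counted. In both pairs Slc25a21 and Slc25a25 rose and Slc25a15 and Slc25a30 fell. The 2 rises are 5.88% of the 34 genes, beside 7.81% of all genes that rose in both pairs, and the 2 falls are 5.88% beside 8.92%. Over the 34 genes the 2 sets of changes correlated at r = 0.807 (Spearman rho 0.426), and over the 32 genes without Slc25a21 and Slc25a30 at r = 0.382 (rho 0.312). These correlations run across genes measured in the same libraries, which are not independent replicates. The plot of the paired changes shows the genes that lie away from 0.

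**Figure D3:**
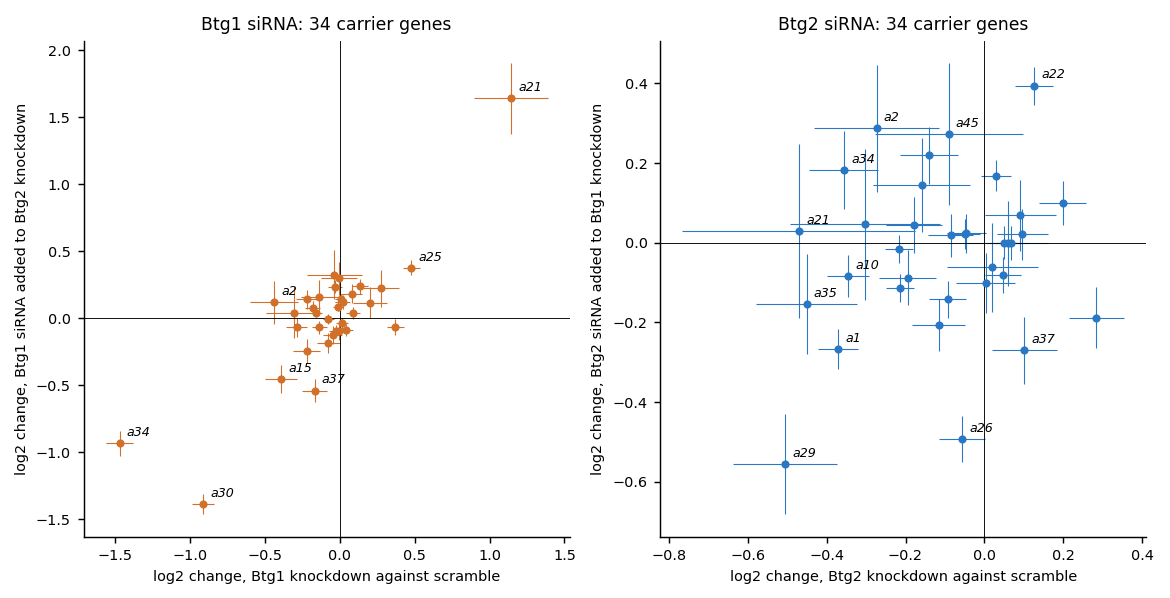
Log2 change of 34 carrier genes for the Btg1 siRNA (left) and the Btg2 siRNA (right), given alone against scramble (horizontal axis) and added to the other knockdown (vertical axis), with bars of 1 standard error. For the Btg1 siRNA, Slc25a21 lies at the upper right and Slc25a30 and Slc25a34 at the lower left. For the Btg2 siRNA every point lies between -0.56 and 0.39 on both axes.

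Slc25a30, a relative of the uncoupling proteins, fell most among the 34 genes. It stood at 58.0, 53.0 and 59.6 CPM in scramble libraries and at 30.6, 26.4 and 33.5 after Btg1 siRNA. After Btg2 siRNA it stood at 66.7, 71.5 and 69.6, and after both at 29.0, 26.1 and 24.5. All 6 libraries after Btg1 siRNA lay below all 6 without it, and the Btg2 knockdown libraries lay above scramble. The log2 change was -0.91 ± 0.07 in the Btg1 knockdown (edgeR adjusted p = 4.9e-09) and -1.39 ± 0.07 when the Btg1 siRNA was added to the Btg2 knockdown (adjusted p = 1.6e-11). In the Btg2 knockdown against scramble Slc25a30 rose by 0.28 ± 0.07 (adjusted p = 0.0043).

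Slc25a21, which exchanges oxoadipate, a breakdown product of lysine and tryptophan, for oxoglutarate, rose most, from a very low level. Its raw counts were 32, 21 and 32 in scramble libraries, 85, 61 and 61 after Btg1 siRNA, 18, 12 and 29 after Btg2 siRNA and 59, 66 and 80 after both. In CPM these are 0.959, 0.531 and 0.888, then 1.81, 1.62 and 1.77, then 0.465, 0.506 and 0.699, and last 1.60, 1.72 and 1.98. The 6 libraries after Btg1 siRNA lay above the other 6. The edgeR log2 change was 1.14 ± 0.25 in the Btg1 knockdown (adjusted p = 7.5e-04) and 1.64 ± 0.26 when the Btg1 siRNA was added to the Btg2 knockdown (adjusted p = 3.5e-05). On the log2(TPM + 1) scale the same rises were 0.56 and 0.73, because the level is under 1 TPM in scramble libraries.

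Slc25a25, a calcium-regulated carrier that exchanges ATP-magnesium for phosphate, rose as well. It stood at 29.5, 29.0 and 29.1 CPM in scramble libraries, 39.1, 42.3 and 40.7 after Btg1 siRNA, 31.2, 35.4 and 34.2 after Btg2 siRNA and 45.6, 41.1 and 44.1 after both. No knockdown library overlapped scramble, and the libraries after Btg1 siRNA were the highest. The log2 change was 0.48 ± 0.06 in the Btg1 knockdown (adjusted p = 7.2e-07), 0.38 ± 0.06 when the Btg1 siRNA was added to the Btg2 knockdown (adjusted p = 1.9e-05) and 0.58 ± 0.06 in the double knockdown (adjusted p = 3.6e-08). It also rose in the Btg2 knockdown, by 0.20 ± 0.06 (adjusted p = 0.013), a call lost without Btg2 knockdown replicate 2 or without replicate 3 (largest adjusted p = 0.072).

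Its relatives of the same transport class, Slc25a23 and Slc25a24, did not pass the test against scramble. Slc25a23 spanned 122.3 to 127.2 CPM in scramble libraries and 113.5 to 133.9 in the others, and Slc25a24 spanned 41.1 to 43.4 and 37.4 to 47.1. Slc25a23 passed only when the Btg2 siRNA was added to the Btg1 knockdown (log2 change -0.14 ± 0.05, adjusted p = 0.031). That call was lost under 8 of 15 alternatives, including the removal of double knockdown replicate 1 or 2 or any Btg1 knockdown library (largest adjusted p = 0.164).

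Slc25a15, the ornithine carrier of the urea cycle, stood at 10.4, 10.3 and 9.90 CPM in scramble libraries and at 8.06, 6.72 and 8.50 after Btg1 siRNA. After Btg2 siRNA it stood at 11.4, 11.0 and 9.52, and after both at 7.25, 8.60 and 7.42. Every library after Btg1 siRNA lay below every library without it. The log2 change was -0.39 ± 0.10 in the Btg1 knockdown (adjusted p = 0.0048) and -0.45 ± 0.11 when the Btg1 siRNA was added to the Btg2 knockdown (adjusted p = 0.0018). Slc25a2, a closely related ornithine carrier, fell in the Btg1 knockdown from 2.88, 3.06 and 3.36 CPM to 2.23, 2.47 and 2.15 (log2 change -0.44 ± 0.16, adjusted p = 0.032). That call was lost when any of 4 libraries, scramble replicate 2 or 3 or Btg1 knockdown replicate 1 or 3, was left out (largest adjusted p = 0.113).

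The windows around the RefSeq start sites of Slc25a34, Slc25a15, Slc25a25 and Slc25a21 are shown because these genes moved the same way wherever the Btg1 siRNA was given. Slc25a30 did so too, but it had no promoter entry and is not shown. Each window runs from 250 bases before to 50 bases after the start, 5′ to 3′ on the strand of the gene, in the assembly GRCr8. The Slc25a34 window is chr5:159219843-159220142 on the minus strand, that of Slc25a15 is chr16:76336620-76336919 on the plus strand, that of Slc25a25 is chr3:36116532-36116831 on the minus strand and that of Slc25a21 is chr6:80437671-80437970 on the minus strand. Capitals mark matches to TGACGTCA (the full cyclic AMP response element), AGGTCA (a core motif of nuclear receptors), CAGGTG (an E-box form), CAGCTG (a second form of the E-box) or TATAAA (the TATA box). Both strands were searched, and no matches overlap in these windows.
Slc25a34: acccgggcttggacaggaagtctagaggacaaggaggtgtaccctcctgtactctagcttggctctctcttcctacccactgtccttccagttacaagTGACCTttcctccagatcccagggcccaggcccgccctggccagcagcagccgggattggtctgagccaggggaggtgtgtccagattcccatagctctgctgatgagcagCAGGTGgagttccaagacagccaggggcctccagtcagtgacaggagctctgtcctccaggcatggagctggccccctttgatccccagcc
Slc25a15: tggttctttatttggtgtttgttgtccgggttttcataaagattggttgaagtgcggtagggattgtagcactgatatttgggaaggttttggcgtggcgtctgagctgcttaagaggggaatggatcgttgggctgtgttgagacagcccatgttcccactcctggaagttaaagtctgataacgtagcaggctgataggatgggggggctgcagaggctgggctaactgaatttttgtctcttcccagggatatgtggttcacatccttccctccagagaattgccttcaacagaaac
Slc25a25: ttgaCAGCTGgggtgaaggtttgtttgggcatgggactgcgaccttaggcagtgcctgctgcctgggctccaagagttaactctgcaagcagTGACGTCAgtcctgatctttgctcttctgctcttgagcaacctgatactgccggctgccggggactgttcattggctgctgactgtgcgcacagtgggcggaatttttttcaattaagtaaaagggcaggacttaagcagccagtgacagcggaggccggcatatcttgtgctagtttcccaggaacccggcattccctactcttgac
Slc25a21: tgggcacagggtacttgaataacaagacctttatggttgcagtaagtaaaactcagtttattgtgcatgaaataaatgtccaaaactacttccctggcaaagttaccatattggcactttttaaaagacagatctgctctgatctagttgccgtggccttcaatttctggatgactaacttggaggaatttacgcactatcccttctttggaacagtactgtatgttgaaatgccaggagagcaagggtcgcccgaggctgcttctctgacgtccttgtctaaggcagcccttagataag

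The Slc25a25 window holds TGACGTCA at -158 and CAGCTG at -246 from the start. TGACGTCA was in 1.91% of 27457 windows of the same length, and in 2 of the 30 carrier windows in the table, those of Slc25a25 and Slc25a33. The Slc25a34 window holds AGGTCA on the other strand at -152 and CAGGTG at -41, letters found in 15.7% and 18.7% of all windows and in 4 and 9 of the 30. CAGCTG was in 15.1% of all windows and 5 of the 30, and TATAAA in 14.3% and 1 of the 30. The windows of Slc25a15 and Slc25a21 held none of the 5. The motifs were chosen after the sequences had been seen, and a match describes the letters only.

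The Btg2 siRNA was tested in the same way, in the Btg2 knockdown against scramble and in the double against the Btg1 knockdown. In the second pair 4 of the 34 genes rose and 7 fell, 32.4% beside 22.3% of all genes (10.3% higher and 11.9% lower). This count of 11 was 7 in a fit of only the groups compared, without double knockdown replicate 2, and without any 1 of the 3 Btg1 knockdown replicates. The share of all genes that passed in those fits was not counted. Slc25a1, Slc25a11 and Slc25a29 fell in both pairs, 8.82% of the 34 genes beside 4.29% of all genes, and no carrier gene rose in both, beside 4.49% of all genes. Across the 34 genes the 2 sets of changes correlated at r = 0.192 (rho 0.11).

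Slc25a1, which exports citrate to the cytosol for lipid synthesis, stood at 72.8, 73.9 and 69.5 CPM in scramble libraries and at 69.2, 75.7 and 74.3 after Btg1 siRNA. After Btg2 siRNA it stood at 58.1, 55.3 and 53.8, and after both at 61.2, 57.8 and 63.0. All 6 libraries after Btg2 siRNA lay below all 6 without it. The log2 change was -0.37 ± 0.05 in the Btg2 knockdown (adjusted p = 6.9e-06), -0.27 ± 0.05 when the Btg2 siRNA was added to the Btg1 knockdown (adjusted p = 3.9e-04) and -0.25 ± 0.05 in the double knockdown (adjusted p = 3.3e-04).

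Slc25a11 showed the same order at a smaller size. It stood at 206, 207 and 210 CPM in scramble libraries, 201, 206 and 212 after Btg1 siRNA, 182, 180 and 176 after Btg2 siRNA and 189, 188 and 194 after both. The libraries after Btg2 siRNA again lay below the rest. The log2 change was -0.22 ± 0.04 in the Btg2 knockdown (adjusted p = 7.7e-05) and -0.11 ± 0.04 when the Btg2 siRNA was added to the Btg1 knockdown (adjusted p = 0.023). The smaller change lost its call under 6 of 15 alternatives, with double knockdown replicates 1 and 2 and Btg1 knockdown replicates 2 and 3 among the libraries whose removal did so (largest adjusted p = 0.106).

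Slc25a29, which carries arginine and lysine, stood at 5.54, 6.01 and 6.43 CPM in scramble libraries, 7.12, 7.65 and 6.99 after Btg1 siRNA, 4.50, 4.85 and 3.5 after Btg2 siRNA and 4.27, 5.38 and 5.14 after both. It was highest in the Btg1 knockdown, where the test was not passed (log2 change 0.27, adjusted p = 0.089). The fall was -0.51 ± 0.13 in the Btg2 knockdown (adjusted p = 0.0057) and -0.56 ± 0.13 when the Btg2 siRNA was added to the Btg1 knockdown (adjusted p = 0.0024). Without Btg2 knockdown replicate 3 the first of these had an adjusted p of 0.061.

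**Figure D4:**
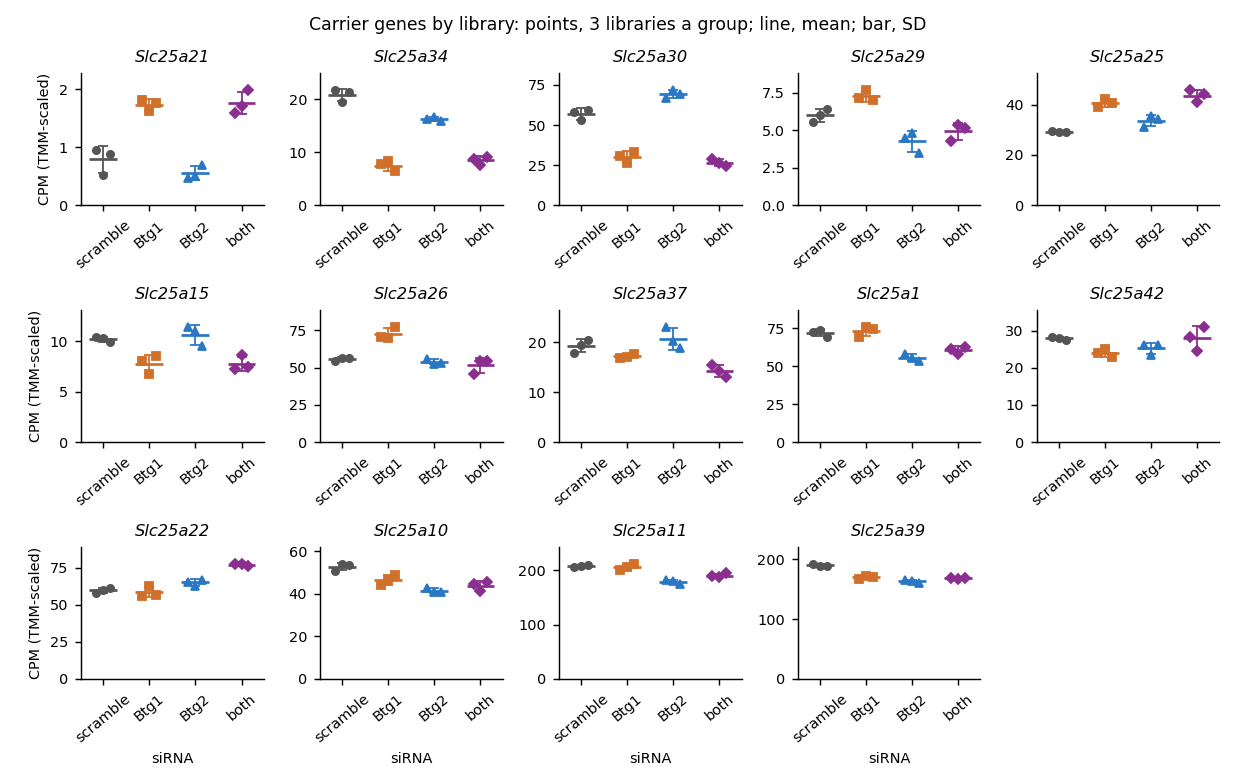
CPM in each of the 12 libraries (points) for 14 carrier genes, by group, with the mean as a line and the SD as a bar, each axis starting at 0. In the panels of Slc25a30, Slc25a34, Slc25a15 and Slc25a21 the groups separate by the Btg1 siRNA, and in those of Slc25a1 and Slc25a11 by the Btg2 siRNA.

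By role, the di- and tricarboxylate carriers all changed in the double knockdown, 4 of 4 beside 38.9% of all genes: Slc25a1, Slc25a10 and Slc25a11 fell and Slc25a21 rose. Slc25a10, which exchanges malate or succinate for phosphate, stood at 50.8, 54.0 and 53.4 CPM in scramble libraries and at 44.0, 46.7 and 48.9 after Btg1 siRNA. After Btg2 siRNA it stood at 42.9, 40.7 and 40.9, and after both at 44.7, 41.4 and 45.4. No knockdown library reached the scramble range. Against scramble the log2 change was -0.18 ± 0.05 for the Btg1 (adjusted p = 0.0086), -0.35 ± 0.05 for the Btg2 (adjusted p = 3.4e-05) and -0.27 ± 0.05 for the double knockdown (adjusted p = 3.1e-04). The first of these was lost without Btg1 knockdown replicate 1 (adjusted p = 0.065). In the Btg2 knockdown 3 of the 4 genes fell and none rose, beside 30% of all genes that passed, the exception being Slc25a21 with a log2 change of -0.47 ± 0.30 (adjusted p = 0.24).

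Beside the other role counts stand the same shares of all genes that passed, 38.9% in the double, 36.5% in the Btg1 and 30% in the Btg2 knockdown. The 7 adenine nucleotide and phosphate carriers counted held 1 rise and no fall in the double knockdown and in the Btg2 knockdown, that of Slc25a25 in both. In the Btg1 knockdown Slc25a25 rose and Slc25a42 fell. Of the 8 amino acid and acylcarnitine carriers 2 rose and 2 fell in the double knockdown, none rose and 4 fell in the Btg1 knockdown, and none rose and 1 fell in the Btg2 knockdown, which is 50.0%, 50.0% and 12.5% of them. The 4 that fell in the Btg1 knockdown were Slc25a2, Slc25a15, Slc25a38 and Slc25a44.

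Slc25a38, the glycine carrier of heme synthesis, stood at 21.0, 24 and 24.7 CPM in scramble libraries and at 19.1, 19.1 and 18.9 after Btg1 siRNA (log2 change -0.29 ± 0.07, adjusted p = 0.0022). It also fell in the double knockdown, to 18.9, 19.8 and 20.2 CPM (log2 change -0.24 ± 0.07, adjusted p = 0.0075), a call lost without scramble replicate 3 (adjusted p = 0.053). Slc25a44, a carrier of branched-chain amino acids, fell in the Btg1 knockdown by 0.14 ± 0.05 on the log2 scale (adjusted p = 0.032). Its call was lost when any of 5 libraries was left out, scramble replicate 2 or 3 or any Btg1 knockdown library (largest adjusted p = 0.099).

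Slc25a20, the carnitine-acylcarnitine carrier that brings fatty acids in for oxidation, rose in the double knockdown. It stood at 113.3, 112.6 and 105.6 CPM in scramble libraries, 111.8, 111.5 and 109.3 after Btg1 siRNA, 111.9, 113.8 and 112.6 after Btg2 siRNA and 125.0, 125.0 and 123.8 after both. All double knockdown libraries lay above the other 9, a log2 change of 0.17 ± 0.04 against scramble (adjusted p = 9.4e-04). The difference between the double knockdown and the sum of the single changes was 0.14 and did not pass its test (adjusted p = 0.092).

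Among the 10 carriers of cofactors, nucleotides, glutathione and metals, 1 rose and 3 fell in the double knockdown, 1 rose and 1 fell in the Btg1 knockdown, and none rose and 3 fell in the Btg2 knockdown, which is 40.0%, 20.0% and 30.0% of them. Slc25a39 fell in all 3. It stood at 191.7, 188.8 and 187.9 CPM in scramble libraries, 167.1, 172.3 and 170.0 after Btg1 siRNA, 165.1, 164.1 and 160.1 after Btg2 siRNA and 167.7, 167.4 and 169.0 after both. The knockdown groups lay close together and below scramble, with log2 changes of -0.16 ± 0.03, -0.22 ± 0.03 and -0.17 ± 0.03 (adjusted p = 8.5e-04, 5.2e-05 and 3.2e-04). The RefSeq table names 8 pseudogenes of Slc25a39 and 9 of Slc25a5, so reads may be shared with near-identical copies and both values are uncertain. It also names 2 of Slc25a3 and 1 each of other members, among them Slc25a4, Slc25a15, Slc25a21, Slc25a33 and Slc25a38. The same limit holds for those genes.

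Slc25a16, linked to the import of coenzyme A, fell in the double knockdown from 27.4, 25.6 and 25.4 CPM to 24.6, 20.8 and 22.3 (log2 change -0.21 ± 0.07, adjusted p = 0.014). The call was lost without scramble replicate 1 or without double knockdown replicate 2 (largest adjusted p = 0.083). Slc25a17, a carrier of the peroxisome and not of mitochondria, spanned 44.8 to 45.1 CPM in double knockdown libraries, 35.7 to 42.1 after Btg2 siRNA alone and 40.0 to 41.3 in scramble libraries. It rose when the Btg1 siRNA was added to the Btg2 knockdown, by 0.24 ± 0.06 (adjusted p = 0.0018), a call kept under all 15 alternatives run. Against scramble the double knockdown was higher by 0.15 ± 0.06 (adjusted p = 0.031). The call against scramble was lost without scramble replicate 2 or 3 or double knockdown replicate 1 or 2 (largest adjusted p = 0.088). Slc25a33, a pyrimidine nucleotide carrier, passed only when the Btg1 siRNA was added to the Btg2 knockdown, at 14.1, 17.4 and 16.1 CPM against 18.3, 20.4 and 17.9 (log2 change -0.24 ± 0.09, adjusted p = 0.040). It was lost under 6 of 15 alternatives, including the removal of double knockdown replicate 1 or 3 or Btg2 knockdown replicate 1 or 2 (largest adjusted p = 0.195).

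The 5 uncoupling-protein-like and orphan carriers counted held 1 fall in the double knockdown and 1 in the Btg1 knockdown, both of Slc25a30, and 1 rise and 1 fall in the Btg2 knockdown. Slc25a14 and Slc25a27, 2 further relatives of the uncoupling proteins, passed in no comparison. Slc25a14 spanned 5.71 to 6.87 CPM in scramble libraries and 5.09 to 7.60 in the others. Slc25a27 spanned 2.63 to 3.12 and 1.79 to 2.8.

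Whether the Btg1 siRNA acted differently with and without the Btg2 siRNA was tested with an interaction term, the change in the double knockdown less the sum of the single changes. It was positive and called for 5 of the 34 genes and negative and called for 3, 23.5% beside 15.1% of all genes (4.99% positive and 10.1% negative). Scaling by library size alone gave 6 positive and 2 negative, and moved the median interaction of all genes up by 0.037. The share of all genes that passed under that scaling was not counted. Among the positive were Slc25a10, Slc25a22, Slc25a39 and Slc25a42, and the negative 3 were Slc25a26, Slc25a30 and Slc25a37. For Slc25a34, described only, it was 0.54 ± 0.13.

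Slc25a26 brings S-adenosylmethionine, the methyl donor, into mitochondria. It stood at 54.7, 56.8 and 56.7 CPM in scramble libraries, 70.3, 70.1 and 77.1 after Btg1 siRNA, 55.8, 52.5 and 53.3 after Btg2 siRNA and 45.9, 54.3 and 54.2 after both. The Btg1 knockdown libraries lay above all others, and those of the double knockdown did not. The log2 change was 0.37 ± 0.06 in the Btg1 knockdown (adjusted p = 2.1e-05) and -0.49 ± 0.06 when the Btg2 siRNA was added to it (adjusted p = 1.8e-06). The interaction was -0.44 ± 0.08 (adjusted p = 7.5e-04).

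Slc25a22, a glutamate carrier, was higher in the double knockdown than in the other groups. It stood at 58.1, 59.9 and 61.2 CPM in scramble libraries, 56.2, 62.5 and 56.7 after Btg1 siRNA, 65.4, 62.9 and 67.0 after Btg2 siRNA and 77.5, 77.2 and 75.9 after both. All 3 double knockdown libraries lay above the other 9. The rise against scramble was 0.36 ± 0.05 (adjusted p = 2.1e-06), while neither single knockdown passed the test (adjusted p = 0.65 and 0.053). The interaction was 0.27 ± 0.07 (adjusted p = 0.0089).

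Slc25a42, which exchanges coenzyme A for adenine nucleotides, stood at 28.3, 27.9 and 27.5 CPM in scramble libraries, 24, 25.1 and 22.8 after Btg1 siRNA, 26.1, 23.4 and 26.1 after Btg2 siRNA and 28.3, 24.5 and 30.9 after both. The single knockdowns lay below scramble, and the double knockdown spread across both. It fell in the Btg1 knockdown by 0.22 ± 0.07 on the log2 scale (adjusted p = 0.022), a call lost without scramble replicate 1 or 2 or Btg1 knockdown replicate 1 or 3 (largest adjusted p = 0.090). Its interaction of 0.36 ± 0.10 (adjusted p = 0.020) was lost without double knockdown replicate 3, Btg1 knockdown replicate 3 or Btg2 knockdown replicate 2 (largest adjusted p = 0.060).

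The mitoferrins, Slc25a37 and Slc25a28, bring iron into mitochondria for heme and iron-sulfur clusters. Slc25a37 stood at 17.9, 19.4 and 20.5 CPM in scramble libraries, 16.8, 17.1 and 17.6 after Btg1 siRNA, 23.0, 20.2 and 18.8 after Btg2 siRNA and 15.4, 14.2 and 13.1 after both. The double knockdown libraries were the lowest, with a log2 change of -0.44 ± 0.08 against scramble (adjusted p = 1.9e-04). Against the Btg2 knockdown the change was -0.54 (edgeR adjusted p = 2.4e-05), a call kept under all 15 alternatives. Against the Btg1 knockdown it was -0.27 (adjusted p = 0.023), a call lost under 4 of 15 (largest adjusted p = 0.090). The Slc25a37 interaction of -0.37 ± 0.12 (adjusted p = 0.035) was lost under 12 of 20 alternatives (largest adjusted p = 0.120). In 9 of them 1 library was left out. Those were scramble replicates 1 and 2, double knockdown replicates 2 and 3, Btg2 knockdown replicates 1 and 2 and all Btg1 knockdown replicates. Slc25a28 passed only in the Btg2 knockdown against scramble, at 28.6, 27.7 and 27.3 CPM against 30.8, 34.3 and 30.6 (log2 change -0.19 ± 0.07, adjusted p = 0.043). That call was lost without scramble replicate 1 or 2 or any Btg2 knockdown library, and with the replicate number as a block (largest adjusted p = 0.224).

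Interactions of 3 further genes were -0.47 ± 0.10 for Slc25a30 (adjusted p = 0.0036), 0.26 ± 0.08 for Slc25a10 (adjusted p = 0.021) and 0.20 ± 0.05 for Slc25a39 (adjusted p = 0.0066). For Slc25a10 the call was lost without scramble replicate 2, Btg1 knockdown replicate 1 or Btg2 knockdown replicate 3 (largest adjusted p = 0.069). For Slc25a10 and Slc25a39 every double knockdown library lay within the range of the single knockdown libraries.

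Carriers that bear other symbols were counted apart. Of 4 tested, Ucp2, an uncoupling protein, rose by 0.54 ± 0.04 in the double knockdown, 0.33 ± 0.04 in the Btg1 knockdown and 0.19 ± 0.04 in the Btg2 knockdown (edgeR adjusted p = 2.0e-10, 5.0e-07 and 6.4e-04). Mcart1, also known as Slc25a51, the mitochondrial NAD carrier, had log2 changes of -0.21 ± 0.06, -0.19 ± 0.06 and 0.11 ± 0.06 (adjusted p = 0.0058, 0.015 and 0.18). The second was lost without scramble replicate 3, Btg1 knockdown replicate 2 or Btg1 knockdown replicate 3. Mtch1 and Mtch2, distant relatives in the outer membrane, passed in none of the 3.

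Of 13 genes of the import route for carriers, 4 rose and 2 fell in the double knockdown, 46.2% beside 38.9% of all genes. The count of 6 in the double knockdown was 3 with library size alone, with only the groups compared, with the replicate block and without scramble replicate 2. In the Btg1 knockdown 2 of the 13 passed (15.4% beside 36.5%), and 1 to 4 did under the alternatives, with 1 passing without scramble replicate 3 or without Btg1 knockdown replicate 1. In the Btg2 knockdown 1 passed (7.69% beside 30%), and 0 to 3 did, with 2 and 3 without scramble replicates 1 and 3 and none without Btg2 knockdown replicate 1. Agk, a lipid kinase that is also a subunit of the TIM22 complex, had log2 changes of 0.54 ± 0.05 for the double (adjusted p = 2.5e-08) and 0.48 ± 0.05 for the Btg1 knockdown (adjusted p = 1.7e-07), both rises. Tomm70, the import receptor for carriers, fell by 0.23 ± 0.05 in the double knockdown (adjusted p = 8.0e-04).

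The list for the malate-aspartate and carnitine shuttles held 9 genes, among them Slc22a5, a carnitine transporter of the cell membrane and not an enzyme. Slc22a5 had the lowest log2 change of the 9 in the Btg1 knockdown (-0.816) and the highest in the Btg2 knockdown (0.283). In the double knockdown 1 of the 9 rose and 5 fell. In the Btg1 knockdown 2 rose and 4 fell, and in the Btg2 knockdown 3 rose and 4 fell. These are 66.7%, 66.7% and 77.8% of the 9, beside 38.9%, 36.5% and 30% of all genes. Mdh1, the cytosolic malate dehydrogenase, fell in all 3, by 0.50 ± 0.04 in the double knockdown (adjusted p = 1.0e-09). Got1, the cytosolic aspartate aminotransferase of the shuttle that Slc25a11 serves, had log2 changes of -0.30 ± 0.04 in the double knockdown, 0.15 ± 0.04 in the Btg1 knockdown and -0.60 ± 0.04 in the Btg2 knockdown (adjusted p = 1.2e-06, 0.0040 and 2.0e-10). Of 15 other inner membrane transporters, 4 rose and 3 fell in the double knockdown, 4 rose and 2 fell in the Btg1 knockdown, and 4 rose and 4 fell in the Btg2 knockdown, which is 46.7%, 40.0% and 53.3% beside the same shares of all genes. Of 4 outer membrane channels 1 rose and 1 fell in the double knockdown, 50.0% beside 38.9% of all genes. Only 1 of the 4 passed there without double knockdown replicate 2. None passed in the Btg1 or Btg2 knockdown, beside 36.5% and 30% of all genes, and up to 1 and 2 did under the alternatives.

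Markers of other cells moved with the groups. Of 8 fibroblast markers 7 fell in the double knockdown, 7 in the Btg1 knockdown and 5 in the Btg2 knockdown, and none rose. Of all genes 19.5%, 17.8% and 13.6% fell in these comparisons. Their summed level was 15256.3 to 15817.7 CPM in scramble libraries, 12347.2 to 14644.6 after Btg1 siRNA, 15174.3 to 16056.2 after Btg2 siRNA and 12432.1 to 13497.5 after both. The 8 cardiomyocyte markers summed to 19514.2 to 20205.1, 19403.1 to 21704.5, 20519.8 to 22809.2 and 22034.9 to 22211.3 CPM in the same order, with 1 higher and 2 lower in the double knockdown, 2 and 3 in the Btg1 knockdown and 2 and 0 in the Btg2 knockdown, beside 38.9%, 36.5% and 30% of all genes that passed.

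Endothelial markers, 7 genes, summed to 87.1 to 91.4 CPM in scramble libraries, 72.0 to 80.2 after Btg1 siRNA, 72.8 to 75.6 after Btg2 siRNA and 57.5 to 63.9 after both. In the double knockdown 1 rose and 5 fell, beside 19.4% and 19.5% of all genes. In the Btg1 knockdown 1 rose and 1 fell, beside 18.7% and 17.8%. In the Btg2 knockdown none rose and 3 fell, beside 16.4% and 13.6%. The 5 smooth muscle markers summed to 1721.7 to 1868.1, 1961.5 to 2552.0, 1961.4 to 2302.2 and 1822.4 to 2009.8 CPM. In the double, Btg1 and Btg2 knockdowns 3, 2 and 1 of them rose, and none fell. The 6 leukocyte markers summed to 31.8 to 36.7, 26.4 to 29.2, 23.1 to 24.1 and 25.8 to 27.7 CPM. In the double, Btg1 and Btg2 knockdowns 2, 1 and 4 of them fell, and none rose. Beside the smooth muscle and leukocyte counts stand the same shares of all genes as for the endothelial markers. No marker of the 5 lists was at 0 in all 3 libraries of any group. In bulk RNA fewer cells of a type and less RNA per cell cannot be told apart, and the part of these shifts in the carrier results was not tested.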

How the data were processed

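Total RNA was amplified with Ovation RNA-Seq v2, made into Nextera XT libraries and sequenced in pairs, per the labels' protocols. Per the submitters' processing notes, the tools were STAR, featureCounts, FastQC, cutadapt and Trim Galore, and the build rn5. The strand setting, the annotation and versions were not given in the sources used here. Reads carry no molecular identifiers, so counts are not independent molecules. The authors deposited raw counts per gene and TPM values. Groups came from titles and treatment labels. The members and lists were chosen with earlier results of these data known. Leaving Slc25a34 and Slc25a53 out of counts was decided after their values were seen.

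Counts were tested with edgeR 4.0.16 (limma 3.58.1, R 4.3.3): filterByExpr kept 12535 genes and removed 4884, TMM scaling, 1 mean per group, quasi-likelihood fit with 8 residual degrees of freedom, Benjamini-Hochberg over all genes tested per comparison, called at 0.05. CPM are TMM-scaled, except those of Btg1 and Btg2, which use total counts. TMM factors lay between 0.971 and 1.02, and the biological coefficient of variation was 4.97%. The step was tested on simulated data. No 2 libraries were the same (replicates differed by a chi-square of 4.07 to 25.7 per degree of freedom).

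Values by library are given for the 5 highest carriers by TPM, for members called the same way in both pairs of groups of an siRNA or for the interaction (the 12 with the largest change, plus Slc25a10), and for Slc25a34. One gene that this rule names is counted but not reported here by name, and the figures leave it and Slc25a53 out. Slc25a20 and the other members given by library outside this rule were chosen after their values were seen. All 36 symbols matched the RefSeq table of GRCr8 and 30 had a promoter entry. That build is not rn5. The sequences are RefSeq's. The alternatives run were DESeq2 1.42.0, limma on log2 of TPM plus 1 or plus 0.1, scaling by RLE or by library size alone, omitting the filter or asking for 1 CPM in 6 libraries, fitting only the groups compared, adding a replicate block, and removing each library in turn. Counting all 36 members was added after the data were seen.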

Additional observations from a re-analysis of the deposited data

Results flagged for a closer look

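For 7 carrier genes described here the effect of the Btg1 siRNA differed with and without the Btg2 siRNA by edgeR's interaction test with Benjamini-Hochberg adjustment. The difference, on the log2 scale, was 0.26 for Slc25a10, 0.27 for Slc25a22, 0.20 for Slc25a39 and 0.36 for Slc25a42. It was -0.44 for Slc25a26, -0.47 for Slc25a30 and -0.37 for Slc25a37. Of the 34 carrier genes counted 23.5% passed this test, beside 15.1% of all genes tested. The call was lost under 12 of 20 alternatives for Slc25a37, and under 3 of 20 for Slc25a10 and for Slc25a42.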

How the results depend on the processing

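Of 64 called results for single carrier genes, Slc25a34 and Slc25a53 left out, 43 kept their call under every alternative run, 21 lost it under at least 1 and none reversed. The number of carrier genes called moved by more than 1.5 times in the fit of only the groups compared. That fit gave 7 in place of 11 for the Btg2 siRNA added to the Btg1 knockdown. Removal of single libraries also moved it that far. It then reached 7 in place of 11 in the Btg1 knockdown, 6 in place of 10 in the Btg2 knockdown and 7 in place of 11 for the Btg2 siRNA added. Leaving out 1 library gave 12 to 17 genes in the double knockdown against scramble, 7 to 12 in the Btg1 knockdown, 6 to 10 in the Btg2 knockdown, 9 to 14 for the Btg1 siRNA added, 7 to 8 for the Btg2 siRNA added and 6 to 8 for the interaction, and the cause was not tested. No strong pairing by replicate number was seen. Deviations from group means correlated at -0.092 to 0.060 in 18 same-numbered pairs and -0.107 to 0.133 in 36 others. With 3 libraries a group, these values cannot show whether same-numbered libraries shared an origin. With the replicate block the counts were 14, 12, 9, 10, 11 and 8, and all 36 members counted gave 16, 13, 11, 11, 11 and 9. Shares of all genes that passed were counted only in the main fit. No such share stands beside the counts under the alternatives, so their moves are not shown to be particular to the carriers. Another scaling moved the median log2 change of all genes by at most 0.037. Changes in TPM with a pseudocount of 1 understate those of low genes such as Slc25a21. At these depths the precision of genes under 1 CPM is limited by low counts.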

Other observations

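The balance of the 2 ADP/ATP carriers, the ratio of Slc25a4 to Slc25a5 in TPM, was 2.55, 2.61 and 2.48 in scramble libraries, 2.66, 2.76 and 2.70 after Btg1 siRNA, 2.78, 2.77 and 2.63 after Btg2 siRNA and 2.61, 2.67 and 2.72 after both. The scramble values were the lowest, touching the double knockdown at 2.61, while neither gene passed the test in any comparison. The ratio was looked at after the values were seen, and its difference between groups was not tested.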
